A study of Mus musculus with 6 samples.

Results

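The guanylate binding protein (Gbp) genes of mouse chromosome 3 were described in Melan-a cells, an immortal line of pigmented melanocytes from C57BL/6 mice. Of 4 listed genes, Gbp2, Gbp3, Gbp5 and Gbp7, 3 had a transcript cluster annotated to 1 symbol, and these are the 3 members among 7659 genes with such a cluster. Gbp5 shared its cluster with its neighbour Gbp2b, so its level is not given, and that joint cluster is shown only for its own values. The genes were selected on their measured log2 differences between passages and between siRNAs, and their clusters were then taken by symbol, 1 for each. The values of these 2 contrasts are therefore a description. Fits over all tested genes also cover the members, and nothing is read from the members' calls or p-values there.

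Cells were transfected either with siDicer, an siRNA that targets Dicer, or with the control siScr, at 3 arrays each, and siDicer and siScr cells of each replicate number shared 1 labelled passage, 47, 54 or 56. All cells were of one female line grown with 200 nM of the phorbol ester TPA, and 50 pmol of siRNA was given to 150000 seeded cells. The titles give 48 h after transfection, whereas the treatment protocol gives lysis 24 h after a change of medium that followed 6 h after transfection. RNA with an integrity number of 10.0 was hybridised to Affymetrix Clariom D mouse arrays, whose array medians lay between log2 4.63 and 4.68 and whose number limits the precision. Dicer1 was not analysed here, so neither the knockdown nor the labels were checked. All 6 melanocyte markers lay above the log2 4.15 below which genes were left out as dim, with means from 5.63 to 12.83, the highest being the melanosomal enzyme Tyrp1. Of 9 leukocyte markers 5 also lay above it, up to 5.69 for Spi1, while the pan-leukocyte gene Ptprc lay at the lowest mean of 2.84. Passage 54 was 1 labelled passage with 1 array per siRNA, so passage and anything else particular to those cultures or their arrays cannot be told apart. The SE and p-values given below for passage 54 treat arrays as independent, so they do not measure the spread between passages. Replicates are called biological in the design text, but no label names separate cultures within a passage. In bulk RNA, fewer cells carrying a transcript and less of it per cell cannot be told apart.

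Guanylate binding proteins are large GTPases that interferons, above all interferon gamma, induce in many cell types. They assemble on the membranes around bacteria and parasites inside a cell, help to break them open, and expose microbial products to cytosolic sensors that trigger inflammasomes. In the mouse, Gbp2 is a prenylated protein found on the vacuoles of Toxoplasma, Gbp5 promotes inflammasome assembly, and Gbp7 has been tied to the delivery of autophagy proteins and of the oxidase that makes reactive oxygen. Dicer, the enzyme targeted by the siRNA, cuts microRNA precursors and long double-stranded RNA.

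The promoters of the 3 members are shown, and no link of their letters to passage or siDicer was tested. They were taken from RefSeq on GRCm38.p6, where all 3 matched, and run from 250 bases before to 50 bases after the annotated start on the plus strand, for Gbp2 at chr3:142620413-142620712, for Gbp3 at chr3:142559794-142560093 and for Gbp7 at chr3:142530086-142530385. Capitals mark matches on either strand to 1 of 2 motifs. The first is the core of the interferon-stimulated response element, GAAA, any 2 bases and GAAA again, and the second is the core of the gamma-activated site, TTC, any 3 bases and GAA.
Gbp2: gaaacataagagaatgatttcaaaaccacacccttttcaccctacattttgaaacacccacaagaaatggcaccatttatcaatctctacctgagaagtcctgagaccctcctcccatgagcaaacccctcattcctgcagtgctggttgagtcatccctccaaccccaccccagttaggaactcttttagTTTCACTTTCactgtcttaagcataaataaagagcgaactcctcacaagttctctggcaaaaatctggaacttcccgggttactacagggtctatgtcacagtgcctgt
Gbp3: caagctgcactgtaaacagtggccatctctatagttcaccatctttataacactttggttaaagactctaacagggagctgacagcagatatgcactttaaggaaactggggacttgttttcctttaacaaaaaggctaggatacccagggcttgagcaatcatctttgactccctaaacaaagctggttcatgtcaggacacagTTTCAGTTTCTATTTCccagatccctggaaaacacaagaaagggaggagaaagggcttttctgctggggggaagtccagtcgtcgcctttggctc
Gbp7: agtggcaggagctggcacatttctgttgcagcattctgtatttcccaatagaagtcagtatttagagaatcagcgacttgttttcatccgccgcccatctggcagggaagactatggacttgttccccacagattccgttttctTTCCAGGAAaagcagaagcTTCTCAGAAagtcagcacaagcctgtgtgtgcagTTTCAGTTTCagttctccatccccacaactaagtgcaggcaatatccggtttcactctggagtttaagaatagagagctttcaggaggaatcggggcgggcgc
All 3 windows hold the first motif, which is found in 3.44% of 32851 promoter windows of this length. In Gbp2 its match covers bases -59 to -50 counted from the start, in Gbp7 bases -53 to -44, and in Gbp3 there are 2 overlapping matches, at -45 to -36 and at -39 to -30. Each of them lies on the minus strand and so reads TTTC, 2 bases and TTTC in the lines above. The second motif, found in 8.30% of windows, occurs 2 times in Gbp7, at -106 to -98 and -87 to -79, and its letters are not in the windows of Gbp2 and Gbp3. A second annotated start of Gbp3 had neither motif within its window. The second motif was not particular to Gbp7 in the cluster. The window of Gbp5, not shown, holds it at -245 to -237 and -52 to -44, and the first motif at -165 to -156. That of Gbp2b, not shown, holds only the first, at -137 to -128. A match is only a string of letters, and no binding was measured.

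All 3 members had their highest levels at passage 54, in siDicer and in siScr cells alike. Gbp2 (transcript cluster TC0300001447.mm.1) had log2 signals of 7.12, 8.30 and 7.33 at passages 47, 54 and 56 in siDicer cells, and of 7.50, 8.15 and 7.41 in siScr cells. Its lowest passage 54 array stood 0.65 above the highest of the other 4 arrays. Averaged over both siRNAs Gbp2 was at 8.23 at passage 54 and at 7.34 at passages 47 and 56, a log2 difference of 0.89 ± 0.11 (SE of the limma fit, 2 against 4 arrays) or 1.85-fold.

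Gbp3 (TC0300001446.mm.1) had log2 signals of 6.77, 7.93 and 7.02 at passages 47, 54 and 56 in siDicer cells, and of 7.14, 7.88 and 7.22 in siScr cells. The passage 54 arrays again stood apart, by 0.66 from the highest of the others. The difference of passage 54 from the other passages was 0.87 ± 0.10 on the log2 scale (SE), or 1.82-fold.

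Gbp7 (TC0300001445.mm.1) had log2 signals of 7.50, 8.64 and 7.81 at passages 47, 54 and 56 in siDicer cells, and of 8.25, 9.15 and 8.30 in siScr cells. Within each siRNA passage 54 was the highest array, but the siDicer array of passage 54 lay only 0.34 above the siScr array of passage 56. The passage 54 difference was 0.93 ± 0.096 on the log2 scale (SE), or 1.90-fold. By absolute size the passage 54 differences of Gbp7, Gbp2 and Gbp3 ranked 11, 12 and 15 among 5361 tested genes.

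**Figure D1:**
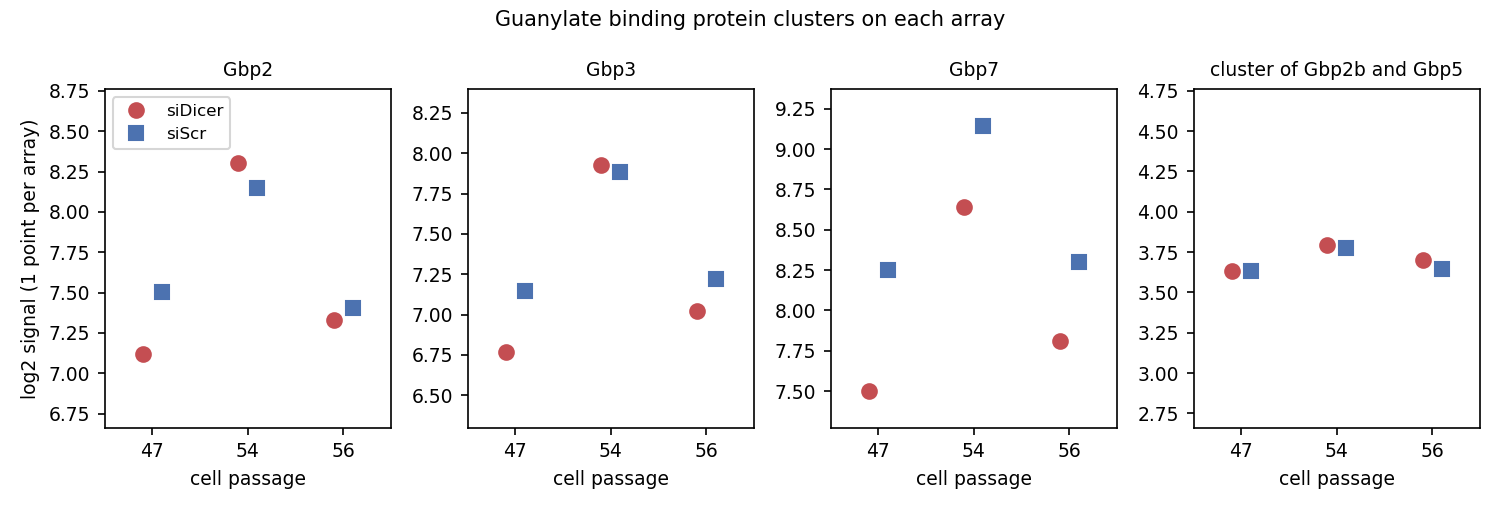
Log2 signal (vertical axis, 1 point per array, the same span in each panel) against cell passage for siDicer (circles) and siScr (squares). Gbp2, Gbp3 and Gbp7 peak at passage 54 under both siRNAs, Gbp7 is lower in siDicer at every passage, and the joint Gbp2b and Gbp5 cluster stays between 3.63 and 3.79.

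The size of the passage 54 difference was alike in the 3 genes and was present under each siRNA. In siDicer cells passage 54 exceeded the mean of passages 47 and 56 by 1.08 for Gbp2, 1.04 for Gbp3 and 0.98 for Gbp7 on the log2 scale. In siScr cells the same differences were 0.69, 0.70 and 0.87. The step between the other passages, 56 minus 47, was smaller, from 0.21 (Gbp2) to 0.31 (Gbp7) in siDicer cells and from -0.095 (Gbp2) to 0.074 (Gbp3) in siScr cells. The joint cluster of Gbp2b and Gbp5 (TC0300001444.mm.1) differed by 0.13 ± 0.048 (SE), at a mean of 3.70 that lies under the dim threshold.

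With siRNA as a covariate, 3 of 3 members passed limma at an adjusted p of 0.05 in the passage 54 contrast, where 1.29% of all tested genes passed, 0.989% upward and 0.298% downward. The members had been chosen with this contrast known, so nothing is read from their count. It was 0 without siDicer replicate 2 or without siScr replicate 1, 2 or 3, and 3 without siDicer replicate 1 or 3. Their log2 differences kept a size of at least 0.69 in each of these fits.

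Between siRNAs, Gbp7 gave another pattern than Gbp2 and Gbp3. Gbp7 was lower in siDicer than in siScr cells at each passage, by log2 -0.75, -0.51 and -0.49 at passages 47, 54 and 56. Its mean was 7.98 ± 0.59 in siDicer and 8.57 ± 0.50 in siScr cells (SD, n = 3), and the groups overlapped, since the siDicer array of passage 54 exceeded the siScr arrays of passages 47 and 56. The mean difference of -0.58 corresponds to 0.668 of the siScr signal, with an SD over passages of 0.15, and ranked 21 by size among the tested genes. A lower value at all 3 passages was found in 20.0% of tested genes, and a higher one in 16.1%.

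Gbp2 gave no such pattern. Its differences of siDicer from siScr were -0.38, 0.16 and -0.079 at passages 47, 54 and 56, with a mean of -0.10 that is smaller than their SD of 0.27. Gbp3 differed by -0.38, 0.049 and -0.20, with a mean of -0.18 and an SD of 0.21. Both genes were thus lower in siDicer at passages 47 and 56 and slightly higher at passage 54. By absolute size the mean differences of Gbp2 and Gbp3 ranked 1705 and 649 among the tested genes. The joint Gbp2b and Gbp5 cluster differed by 0.022 ± 0.028 (SD over passages).

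The contrast of Gbp7 with the other 2 genes was taken within passages. The siDicer difference of Gbp7 minus that of Gbp2 was log2 -0.37, -0.66 and -0.41 at passages 47, 54 and 56, and minus that of Gbp3 it was -0.37, -0.56 and -0.29. Against the mean of both, the gap was log2 -0.37, -0.61 and -0.35, with a mean of -0.44 and an SD of 0.15. Gbp3 minus Gbp2 averaged -0.074 ± 0.067 (SD). In the passage 54 contrast the same gap between Gbp7 and the mean of both others was 0.050. The 3 genes are close paralogs, and whether their probes read each other's transcripts could not be checked.

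**Figure D2:**
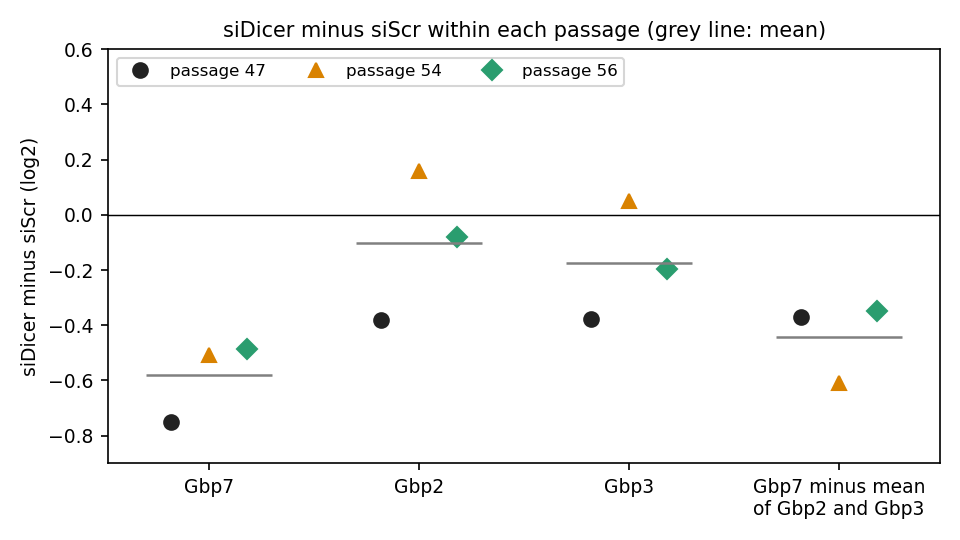
siDicer minus siScr on the log2 scale (vertical axis) within each passage for Gbp7, Gbp2, Gbp3 and for Gbp7 minus the mean of Gbp2 and Gbp3, with 1 point per passage and a grey line at the mean. All 3 points of Gbp7 lie below 0, between -0.75 and -0.49, while Gbp2 and Gbp3 have points on both sides of 0.

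Without regard to passage, 0 of 3 members passed limma between siDicer and siScr, and 0 had an unadjusted p under 0.05, where 0.0187% of all tested genes passed. With passage as a block 1 of 3 members, Gbp7, passed, where 1.73% of all tested genes passed, 0.597% downward and 1.14% upward. Gbp7 kept that call without passage 54 and without passage 56 and lost it without passage 47. Members were chosen with these differences known, and nothing is read from the count.

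The genes that border the Gbp cluster had smaller passage 54 differences than its members. The members had been selected on this difference, so nothing is read from the gap to their neighbours. Of the 5 nearest genes on each side in RefSeq order, 5 were tested, and the rest were dim or not analysed here. Pdlim5, a scaffold of the actin cytoskeleton that lies before the cluster, differed by 0.23 ± 0.067 (SE) at passage 54. Kyat3, a kynurenine aminotransferase, and Gtf2b, a general transcription factor, lie after it and differed by -0.20 and -0.020. The noncoding RNA gene Gm15689 differed by 0.024 and the microRNA gene Mir6381 by 0.056. Of the 5 tested neighbours 0 passed limma in the passage 54 contrast, where 1.29% of all tested genes passed. Both passage 54 arrays lay above the other 4 in 0 of the 5, against 15.4% of all tested genes.

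**Figure D3:**
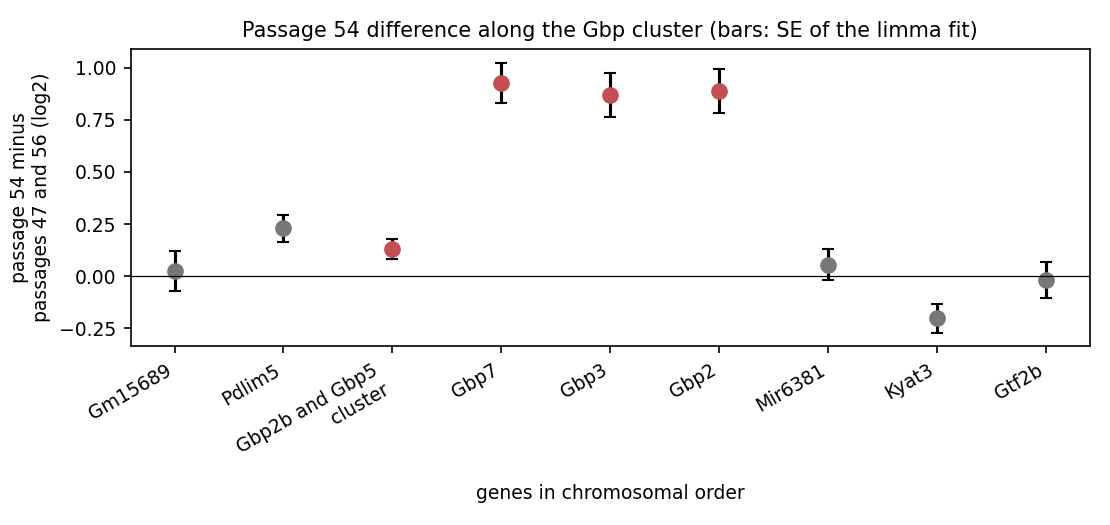
Passage 54 minus passages 47 and 56 on the log2 scale (vertical axis, with bars for the SE of the limma fit) for tested genes in their order along chromosome 3, without distances. The joint cluster of Gbp2b and Gbp5 is drawn at the place of Gbp5. It is not a tested gene, and its SE is from a fit to which it was added. Gbp7, Gbp3 and Gbp2 lie between 0.87 and 0.93 and the bordering genes between -0.20 and 0.23.

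Across the 6 arrays Gbp2 and Gbp3 had nearly the same profile (Pearson r = 0.989), and Gbp7 followed Gbp3 at 0.924 and Gbp2 at 0.881. These correlations are descriptions over arrays that share passages. Among 185 protein coding genes with an SD of at least 0.25 over the arrays, Ifih1, the cytosolic sensor of long double-stranded RNA also called MDA5, was nearest to Gbp2 (r = 0.972) and to Gbp3 (r = 0.979). The others nearest to Gbp2 were the actin regulator Enah (0.970) and the antiproliferative gene Btg2 (0.968), and those nearest to Gbp3 were Ildr2 (0.972) and Sp100, a nuclear body protein (0.968). The nearest to Gbp7 were Samhd1, an enzyme that degrades deoxynucleotides and restricts viruses (0.997), the retinol and alcohol dehydrogenase Adh7 (0.994) and the adhesion receptor Vcam1 (0.985). Each of these 3 was lower in siDicer at every passage, with log2 differences from -0.34 to -0.17 for Samhd1, from -0.42 to -0.20 for Adh7 and from -0.40 to -0.35 for Vcam1. They were picked for following Gbp7 over the same arrays, so nothing is read from this shared direction. It was found in 20.0% of all tested genes.

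Other interferon-induced genes were set beside the members. Like the members, this list and those below were chosen with earlier results of these data known, so nothing is read from their counts. Of 44 listed genes 28 were tested, and the rest were dim or not analysed here. At passage 54 7 of them rose and 0 fell by limma, where 0.989% and 0.298% of all tested genes did, and 18 had both passage 54 arrays above the other 4, against 15.4% of all tested genes. The list's median passage 54 difference was log2 0.33, against 0.0086 over all tested genes. Sp100 rose by 1.22 ± 0.15 (SE, limma, adjusted p = 0.0247) and Ifih1 by 1.04 ± 0.12 (adjusted p = 0.021). Samhd1 rose by 0.43 and the transglutaminase Tgm2 by 0.67 (limma, adjusted p = 0.0369 and 0.0301), and the remaining calls, Zbp1, Sp110 and Ifi206, were named after their values were seen.

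The largest passage 54 difference of the list was that of Ifi204, a DNA-binding protein of the interferon-inducible p200 family, at 1.39. Its log2 signals were 8.57, 10.40 and 9.44 at passages 47, 54 and 56 in siDicer cells, and 8.75, 10.41 and 9.30 in siScr cells. Its relatives Ifi207, Ifi211 and Mndal differed by 1.31, 1.27 and 1.06, and none of these 4 passed limma (adjusted p from 0.0543 to 0.175). Ifi206, of the same family, rose by 0.87 (limma, adjusted p = 0.0375). Passage 56 exceeded passage 47 in all 5 under both siRNAs. The 5 are close paralogs, and cross-reading between their probes could not be checked. The count of 7 was 0 without siDicer replicate 2 or without siScr replicate 1 or 2, 1 without siScr replicate 3, and 13 with array weights.

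**Figure D4:**
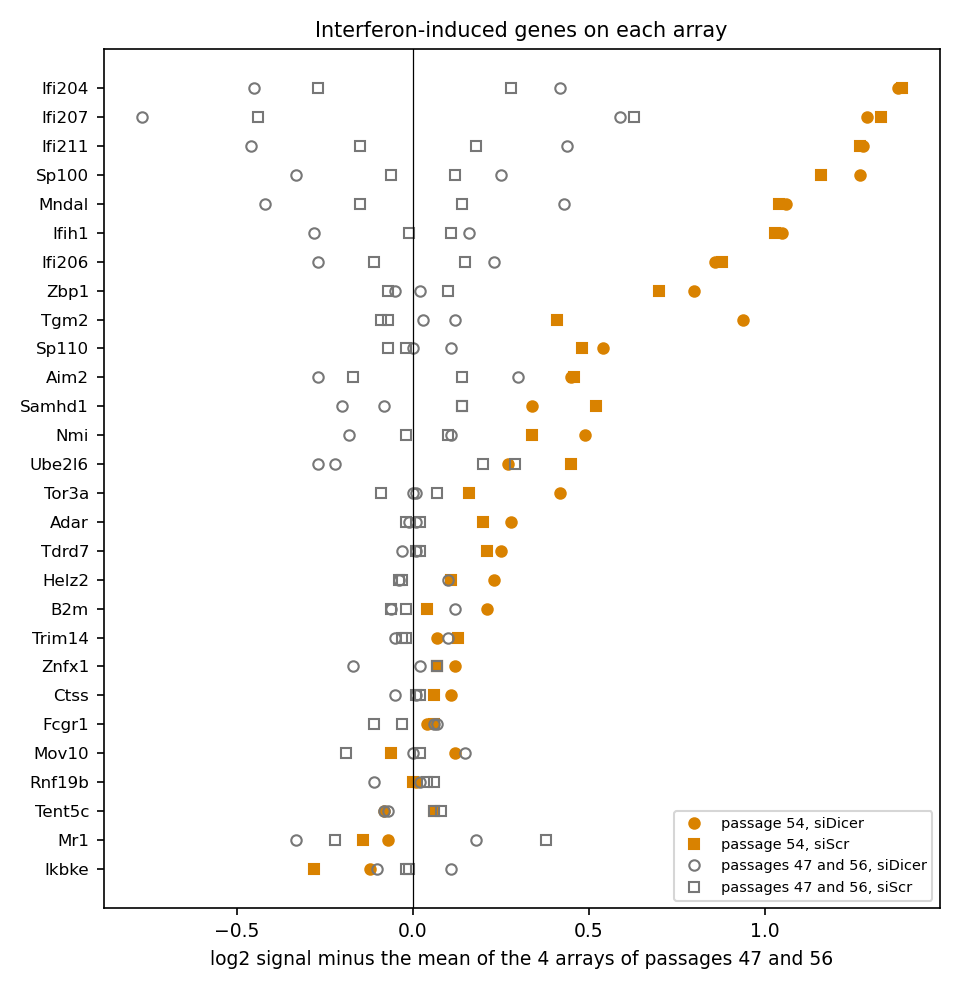
Log2 signal minus the mean of the 4 arrays of passages 47 and 56 (horizontal axis) for the 28 tested interferon-induced genes, 1 point per array, with passage 54 filled and the others open. Both passage 54 points lie right of all open points in 18 genes, with Ifi204 at the top.

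Between siRNAs the list's median difference was log2 -0.004, against -0.0093 over all tested genes, with 13 genes higher and 15 lower in siDicer cells. By limma 0 of 28 passed, with 2 at an unadjusted p under 0.05, where 8.52% of all tested genes were. With passage as a block 0 of 28 passed limma, with 4 at an unadjusted p under 0.05, where 13.8% of all tested genes were. Like Gbp7, 4 of the 28 were lower at all 3 passages, where 20.0% of all tested genes were. Ube2l6, the enzyme that conjugates the ubiquitin-like protein ISG15, had the largest difference, with means of 8.10 in siDicer and 8.48 in siScr cells, followed by Tgm2 (8.17 in siDicer and 7.90 in siScr cells) and Samhd1 (8.77 in siDicer and 9.02 in siScr cells).

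**Figure D5:**
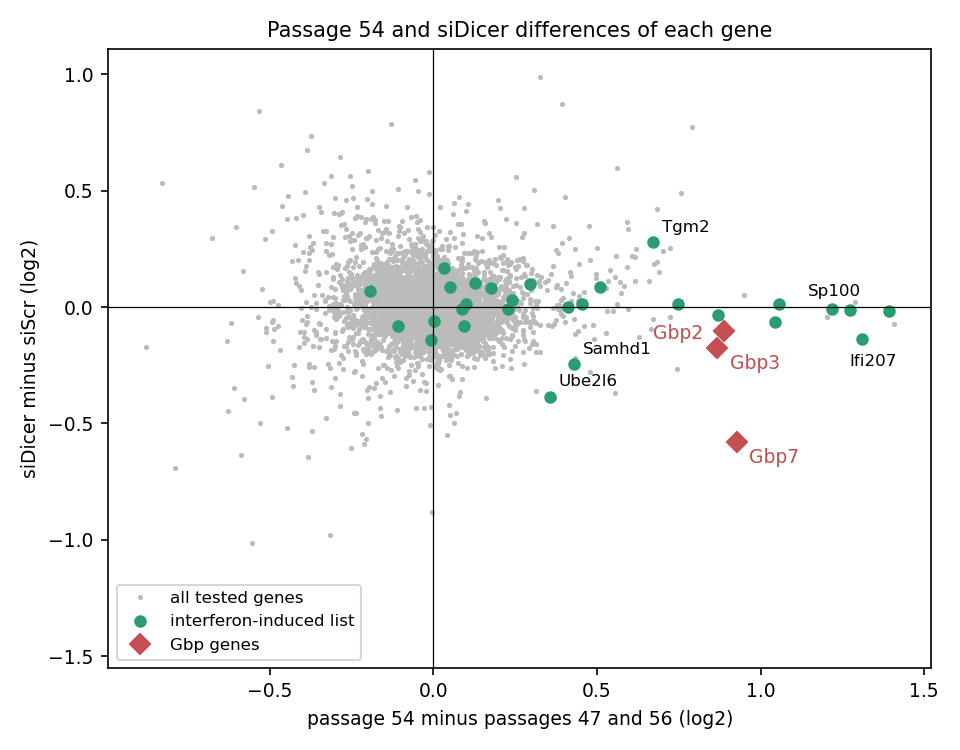
siDicer minus siScr (vertical axis) against passage 54 minus passages 47 and 56 (horizontal axis), both log2, for all 5361 tested genes (grey), the interferon-induced list (circles) and the Gbp genes (diamonds). On the siRNA axis Gbp2 lies at -0.10, Gbp3 at -0.18 and Gbp7 at -0.58.

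Of 8 tested genes that make or relay the interferon signal, 1 (Ifih1) rose at passage 54 and 0 fell by limma, where 0.989% and 0.298% of all tested genes did. Their median difference was -0.045, and Ifih1, Nmi and Ikbke are also on the interferon-induced list. Nmi, itself induced by interferons, differed by 0.41 ± 0.10 (SE), the receptor-associated kinase Jak1 by 0.12, the kinase Ikbke by -0.19 and the interferon lambda receptor Ifnlr1 by -0.083. Tank, an adaptor of the kinases that activate interferon genes, had the largest siRNA difference of the list, with means of 6.73 in siDicer and 6.80 in siScr cells. Interferon beta itself, Ifnb1, lay under the dim threshold with log2 means of 3.38 at passage 54 and 3.33 at the other passages. Between siRNAs 0 of 8 passed limma with or without the block, and 0 had an unadjusted p under 0.05 in either fit, where 8.52% of all tested genes did without the block and 13.8% with it.

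Of 7 tested genes that NF-kB induces, 2 rose at passage 54 and 0 fell by limma, where 0.989% and 0.298% of all tested genes did, with a median difference of 0.17. This list too was chosen with earlier results known. Csf1, the macrophage growth factor, rose by 0.58 and Vcam1 by 0.56 (limma, adjusted p = 0.021 and 0.0335), while Ptgs2, the inducible cyclooxygenase, differed by 0.49, the caspase-8 inhibitor Cflar by -0.31 and the receptor Cd40 by 0.17. Between siRNAs 0 of 7 passed limma and 1 had an unadjusted p under 0.05, where 8.52% of all tested genes did. With passage as a block Vcam1 fell by 0.37 ± 0.058 (SE, limma, adjusted p = 0.033), as 1 of 7, where 1.73% of all tested genes passed. Its log2 signals were 6.34, 6.99 and 6.51 in siDicer cells and 6.69, 7.35 and 6.91 in siScr cells at passages 47, 54 and 56. Vcam1 was also picked above for following Gbp7 over these arrays, so nothing is read from their similar order.

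Summed markers of other cell types were also set against passage. The summed signal of 6 melanocyte markers was log2 13.32 to 13.42 at passage 54 and 13.56 to 13.74 at the other passages. Of the 6 markers 0 were higher at passage 54, where 52.8% of all tested genes were. Mlph, a melanosome transport protein, fell to log2 9.67 at passage 54, against 10.21 at the others (limma, adjusted p = 0.0315). That was 1 call of 6, where 0.298% of all tested genes fell. The sum of 5 fibroblast markers was 8.54 to 8.66 at passage 54 and 8.27 to 8.45 at the others. Of the 4 above the dim threshold 3 were higher at passage 54, where 52.8% of all tested genes were. Postn, the other, differed by -0.061, and the highest, Col5a1, lay at a mean of 7.27. Col3a1 rose by 0.43 (limma, adjusted p = 0.0251), 1 call of 4, where 0.989% of all tested genes rose. The 7 keratinocyte markers summed to between 8.15 and 8.23 at passage 54 and to at most 8.08 at the others. Only 3 of the 7 lay above the dim threshold, up to 6.9 for Flg. Both passage 54 arrays lay below the other 4 in 5 of the 6 melanocyte markers, against 10.8% of all tested genes. They lay above the other 4 in 3 of 4 tested fibroblast, 2 of 3 keratinocyte and 0 of 5 leukocyte markers, against 15.4%. The 9 leukocyte markers overlapped, at 7.65 to 7.66 and at 7.57 to 7.74. Between siRNAs the sums overlapped in all 4 lists when passage was ignored. Within passages the melanocyte sum was lower in siDicer cells each time, as Gbp7 was, at 13.59, 13.32 and 13.56 in siDicer cells and 13.74, 13.42 and 13.59 in siScr cells at passages 47, 54 and 56. Of the 6 melanocyte markers 4 were lower in siDicer at all 3 passages, where 20.0% of all tested genes were. With passage as a block 0 of 6 passed limma, with 3 at an unadjusted p under 0.05, where 13.8% of all tested genes were. The part of these cell type signals in the Gbp values was not tested.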

How the data were processed

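The authors deposited log2 signals, 1 per transcript cluster and array. Per the submitters' processing notes, Affymetrix Expression Console was used. How probes were summarised and normalised, and on which build, is not given in the sources used here. A log2 scale was inferred from the range of 1.70 to 13.70, and the centring is unknown beyond the array medians. Scanner files were not used, so signal over background was not measured.

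Of 16383 clusters, 7715 had 1 gene, 270 several and 8398 none listed. Symbols were updated through RefSeq (320 changed). The highest-mean cluster was kept per gene (7659 genes), and genes under the 30th percentile of mean signal were left out, leaving 5361. All 3 members passed, and each had 1 cluster.

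Limma 3.58.1 in R 4.3.3 (lmFit, eBayes with a trend) was fitted over all tested genes, two-sided, with Benjamini-Hochberg adjustment at 0.05, and was tested on simulated data. One fit compared siDicer with siScr, the other passage 54 with passages 47 and 56 with siRNA as a covariate. The passage fit took arrays of a shared passage as independent. Labels tie replicate numbers to passages shared by both siRNAs, so the numbers pair the samples. Deviations from the group means correlated at 0.42, 0.62 and 0.07 for passages 47, 54 and 56. Alternatives were passage as a block, quantile normalisation, median centring, array weights, other dim filters and leaving out arrays.

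Members and lists were chosen with earlier results of these data known. Named were the members, the 3 most correlated genes of each, tested genes within 5 places of the cluster, and of each pathway list up to 5 genes by passage 54 difference and up to 3 by siDicer difference. Cell type markers were used as summed linear signals.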

Additional observations from a re-analysis of the deposited data

Results flagged for a closer look

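In Gbp2 and Gbp3 the siDicer difference pointed one way at passage 54 and the other way at passages 47 and 56. Gbp2 was higher in siDicer at passage 54 by log2 0.157, and Gbp3 by 0.049, while both were lower at the other passages. The same kind of turn was found in Ptgs2 (0.196 at passage 54), Btg2 (0.073) and Gtf2b (0.068), which were lower in siDicer at the other passages. It was found in the opposite sense in Cd40 (-0.09), Gm15689 (-0.15) and Mir6381 (-0.194), which were higher in siDicer at the other passages. In all 8 cases the difference between passages was not tested, since each passage has 1 array per siRNA. The turn was seen in 8 of 31 genes looked at and in 16.6% of all 5361 tested genes.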

How the results depend on the processing

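Gbp7 minus the mean of Gbp2 and Gbp3 moved by less than its SD over passages in each setting tried, with values from -0.49 to -0.36 including one without passage 54 that was added after seeing the data. Median centring cannot move this gap, since a shift shared by all genes of an array cancels. The block cannot move it either, since both siRNAs have every passage. When 1 array is left out, the passage level that the 3 genes share cancels too. The passage 54 differences of all 3 members kept their sign, with 1 array left out from 0.69 to 1.08 for Gbp2, from 0.70 to 1.04 for Gbp3 and from 0.85 to 0.99 for Gbp7. The siDicer difference with 1 array left out, which leaves 1 passage in 1 group, ran from -0.46 to 0.13 for Gbp2, from -0.52 to 0.061 for Gbp3 and from -0.91 to -0.29 for Gbp7, and with array weights it was 0.20 for Gbp2, 0.10 for Gbp3 and -0.27 for Gbp7. Without passage 54 it was -0.23, -0.29 and -0.62 in the same order. Passage as a replicate block left the members' differences as they were, turned the call of Gbp7 (limma, adjusted p = 0.0256, against 0.688 without the block and 0.44 to 0.86 over its other unblocked settings), and gave 93 genes called between siRNAs, against 1 without it. That blocked count was 5, 19 and 153 without passages 47, 54 and 56 (added after seeing the data), while the unblocked count was 14 with array weights and 0 to 2 with 1 array left out. In the passage 54 contrast 69 genes passed, 294 with array weights, 41 without siRNA in the fit (where Gbp7 no longer passed) and 0 to 224 with 1 array left out (0 without siDicer or siScr replicate 2, 1 and 3 without siScr replicates 1 and 3, 37 and 224 without siDicer replicates 1 and 3). The interferon-induced genes called there were 7, and 13 with array weights and 0 to 10 with 1 array left out. The cause of these changes was not tested. Members were chosen with both contrasts known, so nothing is read from their calls or adjusted p-values. No member had a further cluster of 1 symbol, so another cluster per gene could not be tried.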
